A study of Arabidopsis lyrata subsp. lyrata and Arabidopsis thaliana with 7 samples.

Results

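Organ boundary genes mark the narrow strips of slowly dividing cells that separate a new leaf or floral organ from the meristem and from its neighbours. The 10 genes described here were chosen by their known roles: the NAC transcription factors CUC1, CUC2 and CUC3, the axillary meristem regulators LAS and RAX1, the co-transcriptional regulators BOP1 and BOP2, the LBD proteins LOB and JLO, and the MYB factor LOF1. Each was located in Arabidopsis lyrata through the A. thaliana ortholog that the version-2 annotation names, and each of the 10 matched 1 model out of 32793 in the count table. RNA-seq libraries from poly-A RNA were available for 3 tissues of A. lyrata MN47: 2 libraries each of entire rosettes in the vegetative phase and of entire inflorescences from the main stem, and 1 library of dissected shoot apices. A. thaliana Col-0 contributed 2 libraries of entire rosettes. Plants of both species were wild type, grew on soil in long days of 16 h at 21 °C and received no treatment. Rosettes and apices were taken at the 5-leaf stage, at about 3 weeks; an inflorescence age was not given in the sources used here.

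In A. thaliana, CUC1, CUC2 and CUC3 act redundantly to keep cotyledons and floral organs apart, and they are required for expression of the meristem gene STM. CUC1 and CUC2, but not CUC3, are restrained by the microRNA miR164, which directs cleavage of their transcripts. LAS, a GRAS protein, and RAX1, an R2R3 MYB, promote the formation of axillary meristems in leaf axils. BOP1 and BOP2 carry BTB and ankyrin domains, act at the leaf base and the base of floral organs, and need DNA-binding partners of the TGA family. LOB limits growth at the base of lateral organs, JLO is an LBD protein of boundaries and embryos, and LOF1 works with its close copy LOF2 in separating stem, branch and cauline leaf.

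Because miR164 divides the CUC genes, its sequence and its matches are shown first, from RefSeq on the A. thaliana TAIR10.1 assembly. Capitals mark the seed, bases 2 to 8 counted from the 5′ end. The mature forms lie on chromosome 2 at chr2:19520770-19520790 (a), on chromosome 5 at chr5:287586-287606 (b) and on chromosome 5 at chr5:9852684-9852704 (c), all on the plus strand, and all 3 share 1 seed.
ath-miR164a: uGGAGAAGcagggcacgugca
ath-miR164b-5p: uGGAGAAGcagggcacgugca
ath-miR164c-5p: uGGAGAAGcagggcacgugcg

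The best 21-base window in each A. thaliana transcript was found by counting bases that do not pair with miR164a by the Watson-Crick rules, so that a G:U pair counted as a mismatch. Capitals below mark bases that pair. CUC1 and CUC2 hold the same 21 bases, with 3 mismatches of which 2 are G:U pairs. Both windows are coding and lie in exon 3, at chr3:5111137-5111157 on the plus strand for CUC1 and at chr5:21902301-21902321 on the minus strand for CUC2. CUC3 at its best, at chr1:28672053-28672073 on the minus strand, has 9 mismatches. NAC1, a NAC factor of lateral root formation that miR164 also targets, is shown for comparison, with 2 mismatches at chr1:20947142-20947162 on the minus strand.
CUC1: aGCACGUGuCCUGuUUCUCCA
CUC2: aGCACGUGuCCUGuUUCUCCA
CUC3: caCAuGcuaCuaGaUUCUCCA
NAC1: aGCACGUaCCCUGCUUCUCCA

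Windows with at most 3 mismatches were found in 6 of 27444 A. thaliana mRNAs (0.0219%), and windows with at most 4 in 13 (0.0474%). The other 7 members had 8 to 10 mismatches at best. A match describes the letters only, and these are A. thaliana sequences; the A. lyrata sites and miR164 genes were not analysed here.

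All 10 A. lyrata models were Augustus predictions with 1 transcript each, and none overlapped another model, which matters because the reads carry no strand. Coding length followed that of A. thaliana closely for 9 of the 10, with a ratio of A. lyrata to A. thaliana from 0.984 (CUC2) to 1.003 (CUC3 and RAX1). CUC1 was the exception. Its model (AL3G27070, ortholog AT3G15170, scaffold 3:6339696-6341379) codes for 240 amino acids where the A. thaliana gene codes for 310, a coding ratio of 0.775. The A. thaliana coding segments measure 199, 284 and 450 bases and those of the A. lyrata model 273 and 450; its exon 1, of 239 bases, is non-coding and its start codon falls in exon 2. CUC2 (AL8G28250, ortholog AT5G53950, scaffold 8:16181481-16190345) differed in extent instead. Its model spans 8865 bp, 4.12 times the A. thaliana gene, because 2 short non-coding exons of 87 and 48 bp precede an intron of 6124 bp, and the start codon lies 6818 bp after the annotated transcript start.

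**Figure D1:**
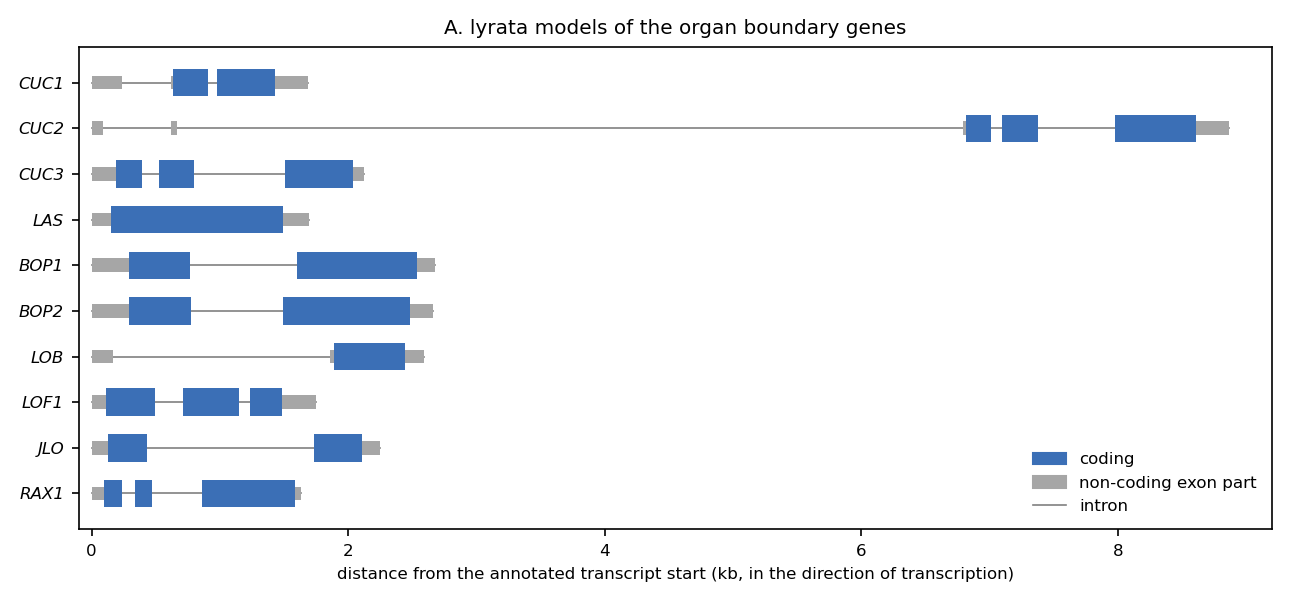
Exons (boxes) and introns (lines) of the 10 A. lyrata models, drawn to scale from the annotated transcript start in kilobases; blue is coding and grey is non-coding. CUC2 is the one long model at 8865 bp, while the other 9 span 1631 to 2678 bp, and the first exon of CUC1, CUC2 and LOB is wholly non-coding.

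The other models were compact. CUC3 (AL2G34940, ortholog AT1G76420, scaffold 2:17144621-17146742) had 3 exons and LAS (AL1G61780, ortholog AT1G55580, scaffold 1:29387194-29388888) a single exon. BOP1 (AL5G37410, ortholog AT3G57130, scaffold 5:18264731-18267408) and BOP2 (AL4G37760, ortholog AT2G41370, scaffold 4:20166228-20168890) had 2 exons each, as did LOB (AL8G38850, ortholog AT5G63090, scaffold 8:20834247-20836834) and JLO (AL6G51950, ortholog AT4G00220, scaffold 6:24978418-24980667). LOF1 (AL1G38060, ortholog AT1G26780, scaffold 1:11154504-11156250) and RAX1 (AL6G33520, ortholog AT5G23000, scaffold 6:9712464-9714094) had 3 exons. JLO has a family member next to it, LBD31, 3194 bp away.

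The A. lyrata libraries held 10556736 (apex) to 28347972 (inflorescence) counted reads and the A. thaliana libraries 12667832 and 15981384. Tissue markers fitted most labels: the floral organ identity genes AP3, PI, AG and SEP3 summed to 1106 and 1009 CPM in the inflorescences and to 0.718 CPM in the apex, and STM had 588 reads in the apex. CPM here is the read count scaled to a common library total after TMM correction for composition. The meristem markers WUS and CLV3, however, had only 2 and 3 reads in the library labelled as dissected meristem. In the inflorescences WUS had 194 and 265 reads, and CLV3 only 0 and 1. The leaf genes CAB1 and RCA summed to 2203 CPM in the apex against 23997 and 32397 CPM in the rosettes. Of the 4 root genes, PLT1 and RHD6 had at most 3 reads in any library, WOX5 had 15 reads in the apex and 1 to 19 elsewhere, and COBL9 had 285 and 264 reads in the inflorescences and at most 1 elsewhere. The rosette libraries were not alike for some of these genes. Replicate 1 held 71 reads of the 4 floral genes, 46 of the meristem gene KNAT1 and 10 of STM, whereas replicate 2 held 7, 0 and 0. Most of the floral reads were from SEP3 alone, with 62 and 5. KNAT6 and PNY, listed with KNAT1, were close between the rosettes, at 3.98 and 3.32 CPM and at 9.335 and 8.51 CPM. WUS and CLV3 had no read in either rosette.

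The members also differed between the rosette libraries. They summed to 140 reads (12.1 CPM) in replicate 1 and 48 reads (4.98 CPM) in replicate 2, and 5 of the 10 (CUC1, LAS, LOB, LOF1 and RAX1) had no read in replicate 2. Among all 25465 models tested, 11.5% had no read in replicate 2 and 7.96% none in replicate 1. Those shares cover models of any level, whereas the 5 members had only 1 to 8 reads in replicate 1. Only CUC2 was higher in replicate 2 in CPM, and the other 9 were higher in replicate 1. Of all tested models, 48.6% were higher in replicate 1. The part of meristem or floral tissue in this difference was not tested. In the shoot apex the 10 genes summed to 55.2 CPM and in the inflorescences to 56.5 and 57.5 CPM, so their joint level was close in these tissues while its make-up was not.

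**Figure D2:**
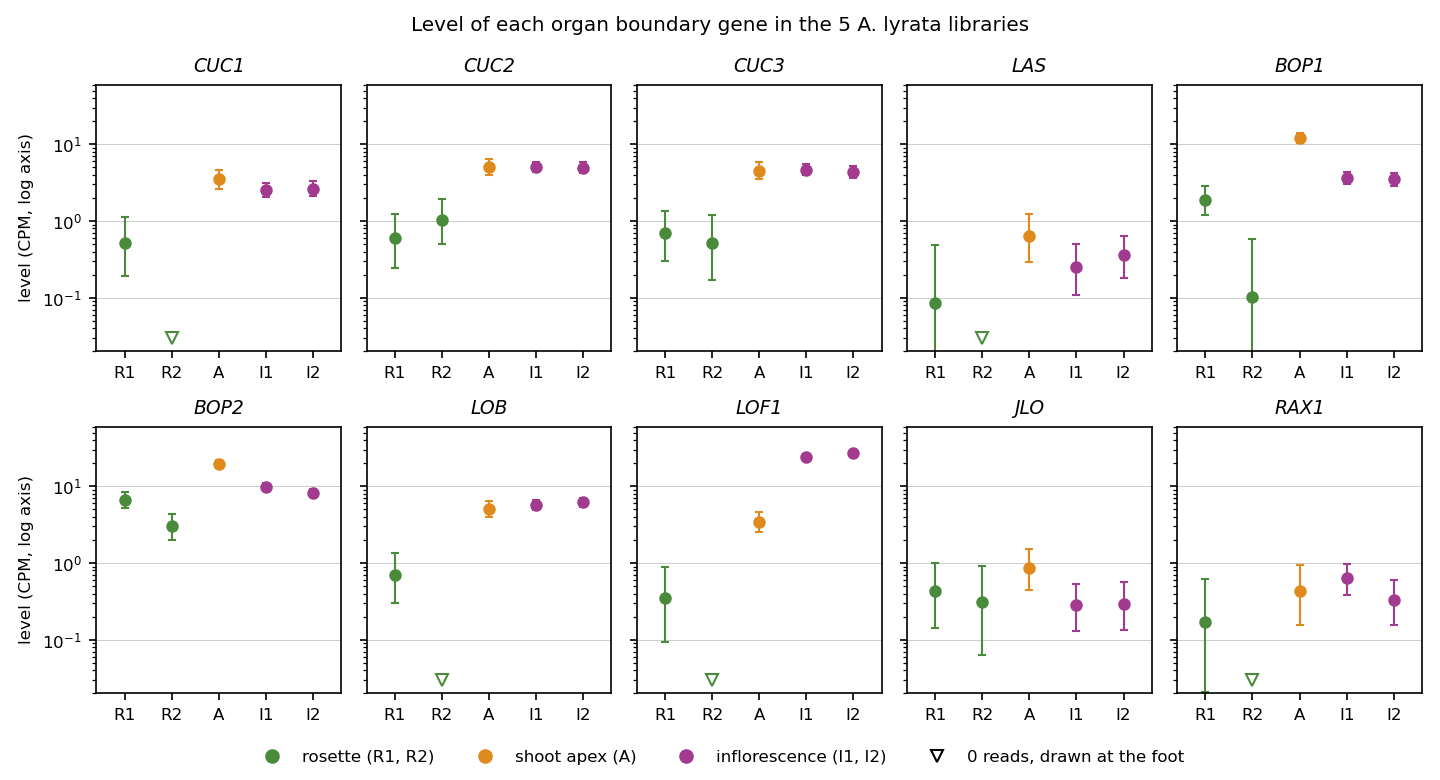
Level of each gene in CPM on a log axis in the 2 rosette (R1, R2), 1 shoot apex (A) and 2 inflorescence (I1, I2) libraries; bars are exact 95% Poisson intervals and cover counting error only, and open triangles at the foot mark 0 reads. The apex point lies above both rosette points in all 10 panels, and LOF1 is highest in the inflorescences at 23.9 and 26.7 CPM.

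Differences between tissues were tested with edgeR's quasi-likelihood test over all models, with p-values adjusted by the Benjamini-Hochberg method. All 10 members passed the filter on low counts, but 7 of them passed it through apex or inflorescence libraries only. These were CUC1, CUC3, LAS, LOB, LOF1, JLO and RAX1, so a difference from rosettes was partly built into their inclusion. In the inflorescence against rosette comparison, 4 of the 10 rose (CUC2, CUC3, LOB and LOF1) and none fell, where 17.6% of all tested models rose and 34.3% changed in either direction. In the shoot apex against rosette comparison 2 rose (CUC2 and CUC3), where 2.11% of models rose and 8.14% changed. The shoot apex against inflorescence comparison called none of the 10, where 12.7% of models changed; edgeR gave 1 member (LOF1) an unadjusted p under 0.05, and DESeq2 called 1. The apex comparisons rest on 1 apex library, whose unseen spread is taken to equal that of the other tissues. The paper's read statistics list shorter reads for the inflorescence libraries than for the rosettes and the apex. Tissue and read length therefore cannot be told apart in the comparisons with inflorescences. In whole tissues, fewer boundary cells and less RNA per boundary cell cannot be told apart, and nothing in the labels says that replicates came from separate plants, so p-values measure only the spread between these libraries.

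**Figure D3:**
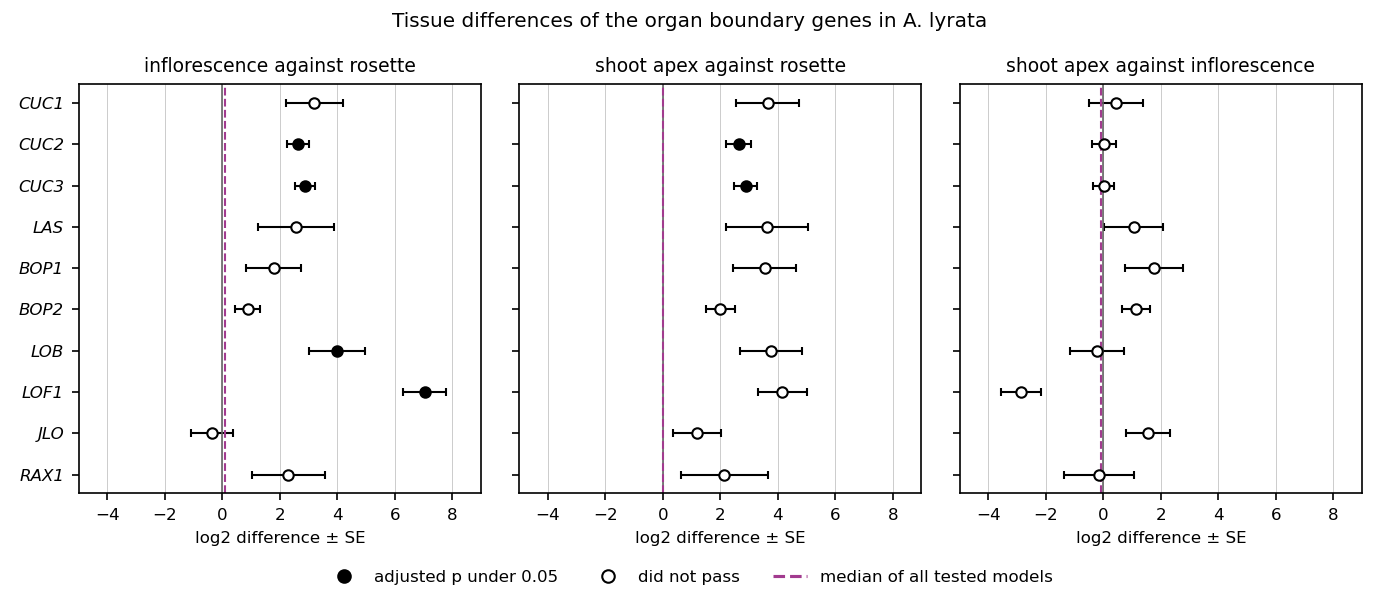
Log2 difference of each gene (points) with its SE (bars) in the 3 tissue comparisons of A. lyrata; filled points have an adjusted p under 0.05 and the dashed line is the median of all 25465 tested models. The 4 filled points on the left are CUC2, CUC3, LOB and LOF1, the 2 in the middle are CUC2 and CUC3, and none is filled on the right.

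CUC2 and CUC3 had nearly equal levels in the apex and the inflorescence, and both were several times lower in rosettes. CUC2 measured 0.605 and 1.04 CPM in the rosettes, 5.10 and 4.96 CPM in the inflorescences and 5.09 CPM in the apex. Both inflorescence libraries and the apex therefore lay above both rosettes, with no overlap. The log2 difference of CUC2 was 2.62 ± 0.39 (SE) in inflorescences against rosettes (adjusted p = 0.0119) and 2.64 ± 0.44 in the apex against rosettes (adjusted p = 0.0444).

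CUC3, the CUC gene without a close miR164 match, followed the same pattern. It stood at 0.692 and 0.519 CPM in the rosettes, 4.66 and 4.34 CPM in the inflorescences and 4.52 CPM in the apex. Again the rosettes were apart from all other libraries. Its log2 difference was 2.87 ± 0.35 (SE, adjusted p = 0.00776) in inflorescences and 2.88 ± 0.40 (adjusted p = 0.0354) in the apex, each against rosettes.

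CUC1, the third of the family and a miR164 target, showed the same ordering with less certainty. It had 6 and 0 rosette reads, or 0.519 and 0 CPM, against 2.55 and 2.63 CPM in the inflorescences and 3.52 CPM in the apex. The groups did not overlap, but the rosettes disagreed. The log2 difference of 3.20 ± 0.99 (SE) in inflorescences did not pass (adjusted p = 0.0709), nor did 3.64 ± 1.10 in the apex (adjusted p = 0.114).

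Between apex and inflorescence, the intervals on the CUC genes show how far a difference could be resolved. For CUC2 the log2 difference was 0.02 with a 95% interval from -1.08 to 1.11, and for CUC3 it was 0.01 with an interval from -0.97 to 0.99. A difference smaller than about 1 log2 unit could not be resolved for either gene. The interval of CUC1 was wider, from -2.06 to 2.94.

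The relation among the CUC genes is read here per kilobase of exon, since the models differ in length. Whether reads in introns were counted is not given in the sources used here, and CUC2 has an intron of 6124 bp. The level of CUC2 per kilobase was 0.919 and 0.960 times that of CUC3 in the inflorescences and 0.946 times in the apex. CUC1 was the lowest of the family in the apex and in both inflorescence libraries, whereas in rosette replicate 1 the level of CUC2 per kilobase was 0.939 times that of CUC1, and replicate 2 held no CUC1 read. The level of CUC2 per kilobase exceeded that of CUC1 by 1.61 and 1.52 times in the inflorescences and by 1.17 times in the apex, where the counting intervals of CUC2 and CUC1 overlapped.

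LOF1, which separates axillary branches from the stem, had the largest difference of the 10 between inflorescences and rosettes. It held 4 and 0 rosette reads (0.346 and 0 CPM), 759 and 813 reads in the inflorescences (23.9 and 26.7 CPM) and 48 reads in the apex (3.44 CPM). The apex thus lay between the other tissues, overlapping neither. LOF1 was higher by 7.04 ± 0.74 log2 units (SE) in inflorescences than in rosettes (adjusted p = 0.00538). This difference was 6.17 log2 units without rosette replicate 2, and without replicate 1 no rosette read of LOF1 remained. Against rosettes, the apex log2 difference was 4.16 ± 0.84 (adjusted p = 0.0593), and against inflorescences it was -2.88 ± 0.69 (adjusted p = 0.0675), both just outside the threshold. LOF2, its close copy, had 0 and 0 rosette reads, 453 and 473 in the inflorescences and 1 in the apex. Its mean inflorescence level was at least 52.2-fold higher than a floor of 3 reads per rosette library, a bound that was not tested. The edgeR test of LOF2 in inflorescences against rosettes gave an adjusted p of 0.00334.

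LOB and JLO are both LBD proteins, yet their levels were distributed differently. LOB had 8 and 0 rosette reads (0.692 and 0 CPM), against 5.73 and 6.18 CPM in the inflorescences and 5.09 CPM in the apex. The apex lay just below both inflorescences and far above both rosettes. LOB rose by 4.00 ± 0.98 log2 units (SE) in inflorescences against rosettes (adjusted p = 0.0416), whereas the apex difference of 3.77 ± 1.08 did not pass (adjusted p = 0.105). Without rosette replicate 2 the inflorescence difference was 3.09 log2 units, and without replicate 1 no rosette read of LOB remained.

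JLO was at 0.432 and 0.311 CPM in the rosettes, 0.283 and 0.296 CPM in the inflorescences and 0.861 CPM in the apex, from 3 to 12 reads a library. It was the only member whose inflorescence libraries were not above its rosettes. None of its differences passed: -0.36 ± 0.72 log2 units (SE, adjusted p = 0.721) in inflorescences and 1.19 ± 0.83 (adjusted p = 0.396) in the apex, each against rosettes. LBD31, the neighbour of JLO and an LBD gene itself, was called in none of the 3 comparisons, with 22 reads in the apex and 1 to 14 elsewhere.

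BOP1 and BOP2 were both highest in the apex. BOP2 was at 6.66 and 3.01 CPM in the rosettes, 9.79 and 8.12 CPM in the inflorescences and 19.5 CPM in the apex. The rosettes were lowest, and no tissue overlapped another. The log2 difference of BOP2 was 2.00 ± 0.49 (SE, adjusted p = 0.0823) in the apex against rosettes, 1.12 ± 0.49 (adjusted p = 0.185) in the apex against inflorescences and 0.88 ± 0.43 (adjusted p = 0.177) in inflorescences against rosettes, and none passed.

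BOP1 was ordered in the same way. It was at 1.90 and 0.104 CPM in the rosettes (22 and 1 reads), 3.65 and 3.52 CPM in the inflorescences and 12.1 CPM in the apex. The gap between the rosettes was wider, as a ratio, than for any other member read in both. Its log2 differences were 3.54 ± 1.09 (SE, adjusted p = 0.118) in the apex against rosettes and 1.76 ± 1.00 (adjusted p = 0.281) in the apex against inflorescences. Per kilobase of exon BOP2 exceeded BOP1 in every A. lyrata library, by 1.52 times in the apex, by 2.53 and 2.18 times in the inflorescences and by 3.31 and 27.4 times in the rosettes, the last against a single BOP1 read.

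LAS and RAX1, the regulators of axillary meristems, were, with JLO, the members with the lowest levels per kilobase in the apex and the inflorescence. LAS had 1 and 0 rosette reads, 8 and 11 in the inflorescences and 9 in the apex, or 0.646 CPM in the apex with an exact 95% Poisson interval of 0.295 to 1.23. RAX1 had 2 and 0 rosette reads, 20 and 10 in the inflorescences and 6 in the apex. Both were lowest in the rosettes, but at this depth no difference was detectable: adjusted p was 0.197 for LAS and 0.222 for RAX1 in inflorescences against rosettes, and 0.175 and 0.403 in the apex. The intervals covering counting error overlapped between RAX1 and LAS in the apex.

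The non-overlap of the libraries was common to the members. In 9 of 10 both inflorescence libraries exceeded both rosettes (JLO was the exception), a pattern that 43.2% of all tested models showed. The apex exceeded both rosettes in 10 of 10, against 37.2% of tested models, and exceeded both inflorescences in 5 (CUC1, LAS, BOP1, BOP2 and JLO), against 43.2%. LAS and JLO passed the filter on low counts through the apex library alone and 7 members through no rosette library, so these counts were partly set by inclusion. The median log2 difference of the 10 was 2.59 in inflorescences and 3.21 in the apex against rosettes. The medians of all tested models were 0.09 and 0. Like the counts, the medians of the members were partly set by inclusion.

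Within a tissue, the order of levels per kilobase of exon changed at the top. In the inflorescence LOF1 led with 17.6 CPM per kilobase, followed by LOB (6.64), BOP2 (4.6), CUC3 (3.52), CUC2 (3.30), CUC1 (2.11), BOP1 (1.95), RAX1 (0.422), JLO (0.304) and LAS (0.181). Of these 9 steps, only those from LOF1 to LOB, from CUC2 to CUC1 and from BOP1 to RAX1 exceeded the counting intervals in both libraries. In the apex BOP2 led with 10.03 CPM per kilobase, ahead of BOP1 (6.60) and LOB (5.68), while LOF1 was seventh at 2.39; the steps from BOP2 to BOP1 and from LOF1 to JLO (0.904) exceeded the intervals. In rosettes BOP2 stood alone at 2.48 CPM per kilobase, and no other step between neighbours exceeded the intervals.

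The calls depended on single libraries. With 1 rosette or 1 inflorescence library left out, the spread came only from the 2 libraries of the other tissue. Without either inflorescence library, edgeR called none of the 9 members then tested (RAX1 failed the filter) in any tissue comparison. For CUC2, CUC3, LOB and LOF1 in inflorescences against rosettes the adjusted p ranged from 0.0601 to 0.186, while the log2 differences stayed near their values with all libraries, at 2.60 and 2.63 for CUC2, 2.82 and 2.92 for CUC3, 4.08 and 3.96 for LOB and 7.13 and 6.96 for LOF1. In that comparison 4 and 3 members still had an unadjusted p under 0.05, in the apex against rosettes 4 did in each case, and in the apex against inflorescences none did. Without rosette replicate 1, 7 members were called in inflorescences against rosettes, 7 in the apex against rosettes and 3 in the apex against inflorescences, where 55.7%, 41.5% and 48.1% of all tested models were. Without rosette replicate 2 the counts were 6, 7 and 3, and the shares of all tested models 49.2%, 31.4% and 47.7%. The 3 in the last comparison were BOP1 and BOP2, higher in the apex, and LOF1, lower.

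Genes related to the members by family or function were taken from lists. Of 8 close relatives of members, LOF2 and LBD36, an LBD protein, rose in inflorescences against rosettes and NPR1, the salicylic acid receptor related to the BOP proteins, fell. No relative was called in the apex against rosettes, and 1 (LOF2) was lower in the apex than in inflorescences. RAX2 and RAX3, MYB copies of RAX1, did not pass in any comparison. The median log2 difference of the list was 0.37 in inflorescences against rosettes, and -0.51 in the apex against rosettes over 7 genes, LOF2 being left out there because it had no more than 1 read in either tissue.

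Other boundary regulators, from LSH3 to DRNL, had 9 of 10 genes with a model and 6 of them tested. None was called against rosettes in either tissue, while LSH3 was higher in the apex than in inflorescences (adjusted p = 0.0464). LSH4, which acts downstream of CUC1 in A. thaliana, had 87 and 6 rosette reads, 462 and 448 in the inflorescences and 1055 in the apex. PTL, a trihelix factor between sepals, had 36 and 11 rosette reads, 93 and 81 in the inflorescences and 137 in the apex. Like BOP1, LSH4 was far lower in rosette replicate 2 and highest in the apex.

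**Figure D4:**
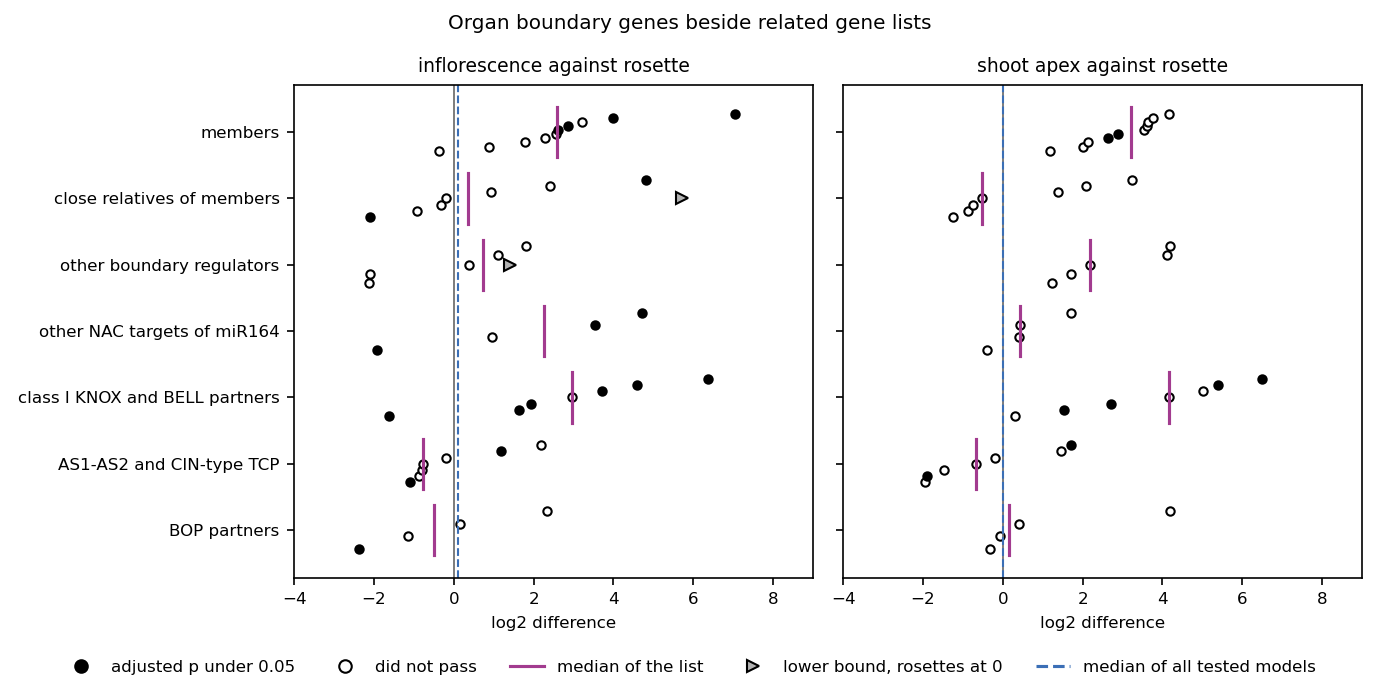
Log2 difference of each tested gene (points) of the 10 members and 6 related lists in inflorescences (left) and the shoot apex (right) against rosettes; filled points have an adjusted p under 0.05, short vertical lines are list medians and arrowheads are lower bounds for LOF2 and SUP, which had no rosette read and are left out on the right. The median of the members, partly set by inclusion, is 2.59 on the left and 3.21 on the right. That of the class I KNOX and BELL genes is 2.97 and 4.18.

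Of the 4 other NAC genes that miR164 targets, 2 rose and 1 fell in inflorescences against rosettes. NAC1 had 133 and 87 rosette reads, 103 and 65 in the inflorescences and 192 in the apex, and it fell in inflorescences against rosettes by 1.93 on the log2 scale (adjusted p = 0.0155). ANAC080 and ANAC100 rose in that comparison, by 4.72 and 3.54 log2 units (adjusted p = 0.0120 and 0.00855). ANAC100 was lower and NAC1 higher in the apex than in inflorescences (adjusted p = 0.0317 and 0.0302). ORE1, a NAC factor of leaf senescence, passed in no comparison.

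Class I KNOX genes and their BELL partners, which maintain the meristem beside the boundary, were the list with the most calls. Of 7 tested, 5 rose in inflorescences against rosettes (STM, KNAT1, KNAT2, KNAT6 and PNY) and 1 (ATH1) fell. Against rosettes, 4 rose in the apex (STM, KNAT2, KNAT6 and PNY). STM, whose expression requires the CUC genes in A. thaliana, had 10 and 0 rosette reads, 1212 and 1206 in the inflorescences and 588 in the apex. Its log2 difference from rosettes was 6.38 in inflorescences (adjusted p = 0.00926) and 6.49 in the apex (adjusted p = 0.0354), larger than those of CUC2 and CUC3. Between apex and inflorescence, STM differed by 0.12 log2 units (adjusted p = 0.920).

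Among AS1, AS2 and the CIN-type TCP genes, which act in the leaf away from the boundary, AS1 rose in both tissues against rosettes, TCP24 fell in inflorescences and TCP10 fell in the apex. The list median was -0.78 log2 units in inflorescences and -0.67 in the apex. Of the BOP partners, 4 of 5 had a model: TGA4 fell in inflorescences against rosettes by 2.38 log2 units (adjusted p = 0.00521) and was higher in the apex than in inflorescences (adjusted p = 0.0125). PAN, a TGA factor through which the BOP proteins act in flowers, had 21 and 0 rosette reads, 177 and 124 in the inflorescences and 243 in the apex. CUL3A, the ubiquitin ligase scaffold that binds BTB proteins, and TGA1 passed in no comparison.

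Models most like 3 of the members over the 5 A. lyrata libraries were sought among 17665 tested models other than the members. These had an ortholog and a mean log2 CPM above 0, a level that LAS itself did not reach. Likeness was the Euclidean distance between log2 CPM values centred per model. Nearest to CUC2 was MYB53 (AL8G41410) at a distance of 0.331, with 4 and 5 rosette reads, 115 and 106 in the inflorescences and 42 in the apex. The next were the orthologs of AT2G41550 (0.471) and of AT5G54610, named ANK (0.487). For BOP2 the nearest were ANAC087 (AL6G29000, 0.0966), the ortholog of AT2G36200 (0.105) and that of AT4G14310 (0.116). For LAS they were the orthologs of AT1G16520 (0.272), AT1G02110 (0.319) and AT4G03130 (0.348), a ranking that depends on the constant added to its low counts before taking logs. Among the members themselves the closest pairs were LAS with BOP2 (0.752) and CUC2 with CUC3 (0.768), and the farthest was LOF1 with JLO (7.27). Distances of LAS and JLO, with at most 11 and 12 reads a library, depend on the same constant. The fitted log2 differences from rosettes were 2.56 for LAS and 0.88 for BOP2 in inflorescences, and 3.62 and 2.00 in the apex.

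The species comparison set the A. lyrata rosettes beside those of A. thaliana, over paired orthologs and per kilobase of coding sequence. At rosette depth only BOP2 and LOB passed the filter on low counts, and neither was called by edgeR or DESeq2, where 9.58% of 17232 tested pairs were; edgeR gave no member an unadjusted p under 0.05, and DESeq2 gave 1. Species, and counting on separate annotations, cannot be told apart in this comparison.

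BOP2 was the most abundant member per kilobase in A. lyrata rosettes. It measured 3.90 and 1.79 CPM per kilobase in A. lyrata and 3.53 and 4.51 in A. thaliana. The ranges overlapped, and the log2 difference of A. lyrata from A. thaliana was -0.49 ± 0.52 (SE, adjusted p = 0.573).

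LOB differed more, without passing. It had 8 and 0 reads in A. lyrata and 58 and 14 in A. thaliana, or 1.07 and 0 against 7.70 and 2.05 CPM per kilobase. The A. thaliana libraries both lay above the A. lyrata libraries but differed widely from each other. The log2 difference was -3.09 ± 1.36 (SE, adjusted p = 0.211). Leaving out A. lyrata replicate 2 gave -2.18, and leaving out A. thaliana replicate 1 or 2 gave -1.85 or -3.75; without A. lyrata replicate 1 no A. lyrata read remained.

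The other 8 members had at most 22 reads in any rosette library and were not tested. CUC2 had 7 and 10 reads in A. lyrata and 0 and 1 in A. thaliana, and in a fit without the filter its adjusted p was 0.155. CUC3 had 8 and 5 reads against 3 and 0. BOP1 had 22 and 1 against 9 and 2, a wide gap between replicates in A. lyrata and a smaller one in A. thaliana. In 4 of the 10 (CUC2, CUC3, LOB and RAX1) the libraries of the species did not overlap, where 60.7% of tested pairs did not. Only LOB of these 4 was among the tested pairs. RAX1 had 2 and 0 reads in A. lyrata and 2 and 2 in A. thaliana. Its gap, from 0.1504 to 0.1505 CPM per kilobase, lay between equal counts.

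**Figure D5:**
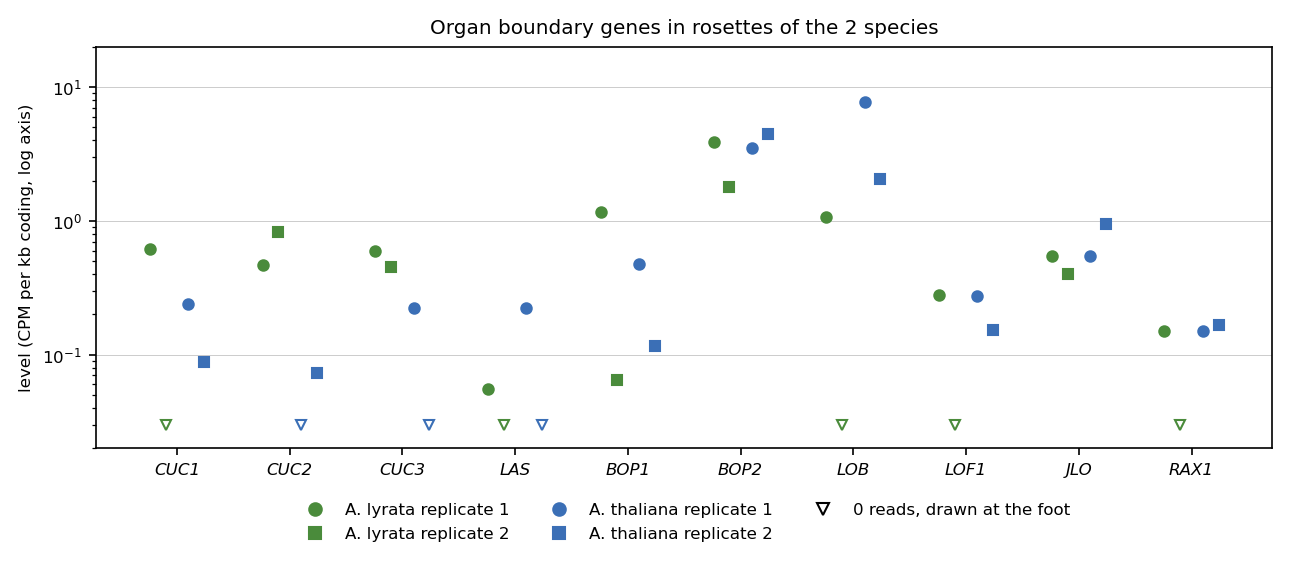
Level of each member in the rosette libraries of A. lyrata (green) and A. thaliana (blue), in CPM per kilobase of coding sequence on a log axis; circles are replicate 1, squares replicate 2, and open triangles at the foot mark 0 reads. BOP2 lies between 1.79 and 4.51 in all 4 libraries, and LOB is higher in both A. thaliana libraries.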

How the data were processed

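Gene-level counts were those deposited. Per the labels and the study's methods, the authors aligned single-end reads without strand with TopHat and used unique alignments in their analysis. Reads were counted per version-2 A. lyrata model or per A. thaliana TAIR10 gene, and the counting tool is not given in the sources used here. The inflorescence libraries held 28347972 and 26047279 counted reads, more than the unique alignments that the paper lists for them. Rosette and apex libraries held fewer than theirs. Whether the deposited counts hold unique alignments only is therefore not known. Deposited columns of scaled values were not used. Groups came from the labels. Members and lists were chosen with earlier results of these data known. All 5 A. lyrata libraries were fitted together with edgeR 4.0.16 (R 4.3.3; TMM, filterByExpr by tissue, quasi-likelihood test, Benjamini-Hochberg adjusted p under 0.05 over 25465 models), with 2 residual degrees of freedom. Rosettes of the species were compared over 17232 of 21986 ortholog pairs with coding length as offset. The scripts were tested on simulated counts. The text names all 10 members, the 3 nearest models for CUC2, LAS and BOP2, and from 54 related and marker genes (51 matched to a model) up to 4 examples a list in list order, plus genes called or tied to a member. The log2 difference behind each call has its SE from the test's F value. Intervals and floors cover counting error only. Alternatives were DESeq2 1.42.0, no TMM, no filter, other length offsets, a replicate block, a fit of 4 libraries and leaving out each replicate.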

Additional observations from a re-analysis of the deposited data

How the results depend on the processing

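Leaving out 1 replicate at a time moved the models called from 896 to 14412 in inflorescences against rosettes (8729 with all libraries), from 0 to 10726 in the apex against rosettes (2073), from 0 to 12433 in the apex against inflorescences (3242) and from 162 to 1400 of the species pairs (1651). The members called ranged from 0 to 7, 0 to 7 and 0 to 3 in the tissue comparisons. The counts of 0 came without an inflorescence library, where the spread came from the 2 rosette libraries alone. How far this set the counts was not tested.

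DESeq2 called 4593 models in the apex against rosettes, 5096 in the apex against inflorescences and 3274 species pairs, and 5 and 1 members in those tissue comparisons. Without TMM, 6594 models (5472 higher, 1122 lower; 538 and 1535 with TMM) and 4 members were called in the apex against rosettes. In inflorescences against rosettes the split moved from 4479 higher and 4250 lower to 9819 and 2852, and in the apex against inflorescences from 1016 and 2226 to 1358 and 1802. Without TMM the median of all models moved from 0.09 to 0.68, from 0 to 0.67 and from -0.08 to 0.13 log2 units, and JLO (0.20, inflorescence against rosette) and RAX1 (0.057, apex against inflorescence) changed sign. Without the filter 1 member was called in the apex against rosettes, and CUC3 in the apex against inflorescences was -0.00017. The cause was not tested.

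The labels give groups the same replicate numbers, without saying what the numbers mark. The deviations of same-numbered libraries had a correlation of 0.068 for rosettes and inflorescences and of -0.179 for the species. With a single pair of libraries per group, this cannot exclude that the numbers pair the samples. With a replicate block, 0 models (6024 with an unadjusted p under 0.05) and 0 members (6) were called in the apex against rosettes, 1280 models in the apex against inflorescences and 721 species pairs; 3 members were called in inflorescences against rosettes, LOB losing its call (adjusted p = 0.0654), and CUC3 in the apex against inflorescences was -0.10.

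Of 261 member values under the alternatives, 212 were counted as keeping their direction and side of the threshold, 16 lost a call, 29 gained one and 4 changed sign. The 212 include DESeq2 values without an adjusted p, which kept their direction only. These were LAS and RAX1 in both apex comparisons and JLO in the apex against rosettes.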
